A study of Homo sapiens with 9 samples.

Results

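A set of 10 named genes of the ATF4-CHOP branch of the stress response was followed in MDA-MB-231 cells: the transcription factors ATF4, DDIT3 (which encodes CHOP), ATF3 and CEBPB, the feedback regulators TRIB3 and PPP1R15A, and the stress-induced genes SESN2, DDIT4, CHAC1 and VLDLR. They were taken by gene name from the lists of genes deposited for each library, and all 10 are among the 27615 genes of the longest list. The members were selected on earlier results of these same libraries, in which their counts and FPKM values differed between treated and vehicle-treated cells, so the fold changes of the members are given below with standard errors and 95% intervals as a description and without a p-value. MDA-MB-231 is an established triple-negative breast cancer line, and the labels name no genetic change in any group. The cells had received DMSO as vehicle, rimonabant, or TXX-1-10, and 9 RNA-seq libraries were made, 3 from each treatment. Rimonabant blocks the cannabinoid receptor CB1, and TXX-1-10 was derived from this compound. How much of each compound the sequenced cells received, and for how long, is not given in the sources used here, so it is not known whether the compounds were compared at matched doses. Nothing says whether the libraries of a treatment came from separate cultures, and the spread between them may be technical.

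Cells under stress from misfolded proteins, amino acid shortage, haem shortage or viral RNA activate kinases that phosphorylate the translation initiation factor eIF2. Most protein synthesis then slows, while the ATF4 messenger RNA is translated more, and ATF4 with its dimer partners switches on genes for amino acid supply, redox balance and, through CHOP, cell death. TRIB3 and PPP1R15A are themselves induced and act back on the pathway, TRIB3 by restraining ATF4 and CHOP and PPP1R15A by bringing a phosphatase to eIF2. Much of the control of ATF4 lies in its translation, which a count of messenger RNA does not record.

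The library total behind the deposited FPKM values was 17078370 to 19277808, and it was slightly higher in the treated cells. It is not a plain number of reads. In vehicle replicate 1 the listed counts alone sum to 17492638, above the total of 17078370. Each list ends at a different gene of a common order, and a gene beyond the end of a list has no value there. The list of rimonabant replicate 1 stops after 4237 genes and holds 5 members (ATF4, TRIB3, DDIT4, PPP1R15A and CEBPB), while the other 8 libraries list all 10. The comparisons were therefore fitted with edgeR's quasi-likelihood test on the counts of these 8 libraries, over the 9369 genes with a mean FPKM of at least 1, so that rimonabant has 2 libraries in each fold change. All 10 members passed that filter, and each was above 1 FPKM in every library that lists it. A gene is called where its log2 fold change reached 1 in either direction with an adjusted p (Benjamini-Hochberg) under 0.05. TXX-1-10 replicate 3 stood apart from its replicates, with a chi-square per degree of freedom of 17.8 and 22.1 against them, where pairs without it gave 1.96 to 4.27. In TXX-1-10 replicate 3 and in rimonabant replicate 1 longer genes had relatively fewer counts than in their replicates (Spearman rho with length -0.63 and -0.70 across genes, which are not independent replicates). Of the 2 rimonabant libraries in the fits, replicate 3 showed the same trend relative to replicate 2 (rho -0.38). For some of the members, fold changes without TXX-1-10 replicate 3 are given beside the comparisons. Of the markers of the line, VIM was at 224 to 329 FPKM and AXL at 124 to 221 FPKM in the 9 libraries, with CD44, EGFR, FOSL1 and CAV1 at 20.8 FPKM or more in each. Oestrogen receptor (ESR1) reached 0.0314 FPKM at most, CDH1 was at 0 and the pan-leukocyte marker PTPRC reached 0.0639 FPKM, each in 4 libraries. ERBB3, also expected near 0, was at 0.45 to 0.962 FPKM in 7 libraries. The blood cell marker CD14 reached 0.554 FPKM and PDGFRB, from the endothelial and fibroblast markers, 0.533 FPKM, each in 5 libraries.

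The sequences upstream of the members are shown first, because ATF4 and its partners bind short DNA elements there. RefSeq windows on GRCh38.p14, running from 250 bases before to 50 bases after each annotated start, were found for all 10 members (16 windows) and were searched on both strands. The core of the C/EBP-ATF response element, to which ATF4 dimers bind (TGATGNAA), occurred in windows of 2 members, CHAC1 and ATF3. It occurred in 3.62% of all 35116 windows and in 4.46% of the 27305 genes. The cAMP response element (TGACGTCA), bound by CREB and ATF family dimers, occurred in 1 member, PPP1R15A, and in 2.25% of genes. The ER stress response element occurred in no member window and in 0.0916% of genes. These windows are printed for the 3 members with a match, on the plus strand, which is the strand of each gene, with the matched letters in capitals. In CHAC1 the match lies on the minus strand, so the capitals read TTGCATCA on the printed strand, the reverse complement of the stricter form TGATGCAA, which 1.08% of genes hold. The windows are chr15:40953221-40953520 for CHAC1, chr1:212565157-212565456 for ATF3 and chr19:48872171-48872470 for PPP1R15A.
CHAC1: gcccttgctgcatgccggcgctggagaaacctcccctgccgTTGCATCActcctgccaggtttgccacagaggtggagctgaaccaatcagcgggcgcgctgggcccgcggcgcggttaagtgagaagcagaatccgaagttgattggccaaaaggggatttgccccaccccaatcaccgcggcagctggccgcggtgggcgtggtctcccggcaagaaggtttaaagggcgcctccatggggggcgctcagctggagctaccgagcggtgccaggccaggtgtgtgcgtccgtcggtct
ATF3: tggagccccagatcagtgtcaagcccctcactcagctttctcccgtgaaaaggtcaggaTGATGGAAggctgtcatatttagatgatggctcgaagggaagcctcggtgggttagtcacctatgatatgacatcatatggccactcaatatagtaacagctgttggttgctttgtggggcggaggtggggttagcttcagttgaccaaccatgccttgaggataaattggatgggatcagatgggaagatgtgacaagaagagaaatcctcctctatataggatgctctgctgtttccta
PPP1R15A: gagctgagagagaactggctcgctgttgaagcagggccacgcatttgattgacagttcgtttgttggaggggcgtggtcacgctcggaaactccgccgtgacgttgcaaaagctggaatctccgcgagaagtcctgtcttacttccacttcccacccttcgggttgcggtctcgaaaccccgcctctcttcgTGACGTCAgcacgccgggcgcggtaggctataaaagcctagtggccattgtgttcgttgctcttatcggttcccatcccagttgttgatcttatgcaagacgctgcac
The match begins 209 bases upstream of the annotated start in CHAC1, 191 bases upstream in ATF3 and 58 bases upstream in PPP1R15A. ATF3 has a further window, at a start farther downstream in the gene, without a match. TRIB3 and DDIT3, the members with the widest range between treatments, had no exact match to these elements in their windows. That says nothing of variants of the elements there, or of elements elsewhere in those genes. The member windows had a median GC content of 66.2%, against 58.7% for all windows.

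With TXX-1-10, transcripts of all 10 members were more abundant than with vehicle, from 1.13-fold for DDIT4 to 11.2-fold for DDIT3, and no member's TXX-1-10 libraries overlapped its vehicle libraries, which also held for 76.4% of all genes tested. With rimonabant, 9 members were higher than with vehicle, by 4.81-fold at most (CHAC1), and DDIT4 was lower. The rimonabant and vehicle libraries in the fits did not overlap for any member, nor for 72.4% of all genes tested. The compounds differed most from each other in DDIT3 and TRIB3, and least in ATF4 and VLDLR. Per 1000000 of the library total behind the FPKM values, the 10 genes together held 899 to 918 reads in the vehicle libraries. They held 1431 and 1492 in rimonabant replicates 2 and 3, and 2282 to 2620 in the TXX-1-10 libraries. Each level is a mean over all cells of a culture, so that more cells with a transcript and more transcript per cell cannot be told apart.

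**Figure D1:**
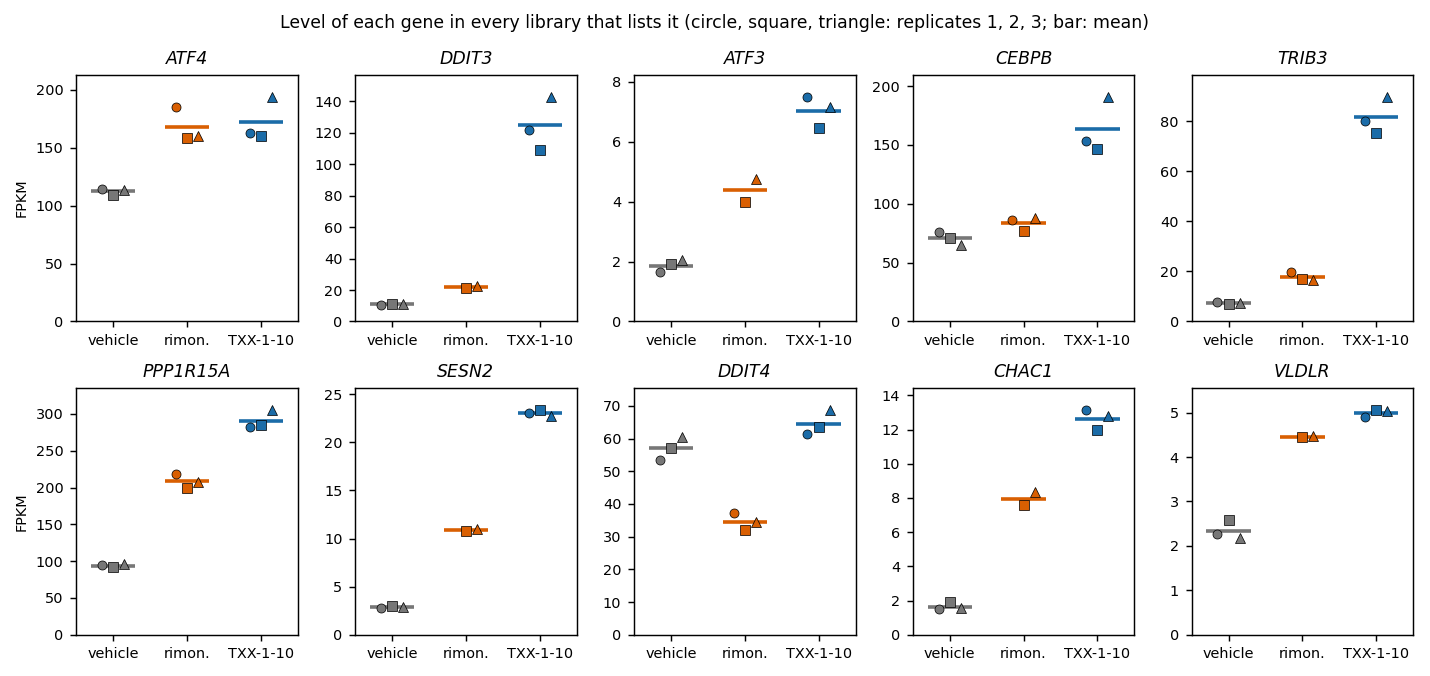
Level of each of the 10 genes in every library that lists it, in FPKM on an axis from 0 that differs between panels, with a bar at the mean of each treatment. The TXX-1-10 libraries lie far above both other treatments in DDIT3 and TRIB3, level with rimonabant in ATF4, and the rimonabant libraries lie below vehicle in DDIT4 alone.

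ATF4, the factor that gives the pathway its name, is a short gene at chr22:39519695-39522685 on the plus strand (GRCh38). Its level was 114, 109 and 114 FPKM in the vehicle libraries, 185, 159 and 161 in the rimonabant libraries and 163, 160 and 194 in the TXX-1-10 libraries. Every treated library lay above every vehicle library, while the treated groups overlapped each other. The log2 fold change against vehicle was 0.62 for TXX-1-10 (SE 0.07, 95% interval 0.47 to 0.77) and 0.51 for rimonabant (SE 0.08, interval 0.34 to 0.68). Both lie below the fold threshold of 1. The highest TXX-1-10 value came from replicate 3, and without it the fold change of TXX-1-10 was 0.52.

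DDIT3 encodes CHOP, a C/EBP-family factor that lies downstream of ATF4 and promotes cell death when stress persists. It was at 10.8, 11.3 and 11.2 FPKM in the vehicle libraries, at 21.2 and 22.3 in rimonabant replicates 2 and 3 and at 122, 109 and 143 in the TXX-1-10 libraries. The 3 treatments formed separate steps, with the lowest TXX-1-10 library far above the higher rimonabant library. These values rest on 240 to 254 reads per vehicle library, 520 and 540 with rimonabant and 2627 to 3436 with TXX-1-10. DDIT3 had a log2 fold change against vehicle of 3.49 for TXX-1-10 (SE 0.10, interval 3.28 to 3.70) and 0.97 for rimonabant (SE 0.12, interval 0.72 to 1.22), the latter just under the fold threshold. DDIT3 (chr12:57516588-57521737, minus strand) overlaps MARS and MBD6 on the opposite strand, and on its own strand the microRNA gene MIR616 and the protein-coding gene AC022506.1, which no list holds. Whether reads were counted by strand is not given in the sources used here, so reads of these genes may not be separable. MARS, a methionyl-tRNA synthetase gene with 3325 to 7158 reads per library, differed by 0.90 on the log2 scale for TXX-1-10 and 0.31 for rimonabant, and MBD6 by 0.73 and 0.31. MIR616 had 6 to 99 reads in the 6 libraries that list it. Their part in the DDIT3 values was not tested.

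ATF3, a factor of the same leucine zipper class that is induced by ATF4 and by many other stresses, was the least abundant of the 4 transcription factors. It was at 1.64, 1.91 and 2.04 FPKM in the vehicle libraries, at 3.99 and 4.77 in rimonabant replicates 2 and 3 and at 7.50, 6.47 and 7.16 in the TXX-1-10 libraries. Again the 3 treatments did not overlap. Against vehicle, the log2 fold change was 1.92 for TXX-1-10 (SE 0.11, interval 1.68 to 2.16) and 1.23 for rimonabant (SE 0.12, interval 0.96 to 1.5). ATF3 lies at chr1:212565334-212620777 on the plus strand, and its annotated transcripts have up to 5 exons.

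CEBPB encodes a C/EBP factor that dimerizes with ATF4 and with CHOP. Its level was 75.8, 71.1 and 65.2 FPKM in the vehicle libraries, 86.2, 77.0 and 87.8 in the rimonabant libraries and 153, 147 and 191 in the TXX-1-10 libraries. All TXX-1-10 libraries were above all others, while the rimonabant libraries stood only slightly above vehicle. For CEBPB the log2 fold change was 1.21 for TXX-1-10 (SE 0.10, interval 1 to 1.42) and 0.22 for rimonabant (SE 0.11), with an interval of -0.01 to 0.46 that includes 0. Without TXX-1-10 replicate 3, the highest library, the former was 1.09. The rimonabant value was 0.31 without rimonabant replicate 2 and 0.12 without replicate 3. CEBPB (chr20:50190734-50192689, plus strand) has a single exon and an antisense partner, CEBPB-AS1, with 22 to 52 reads in the 6 libraries that list it.

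TRIB3 encodes a pseudokinase that binds ATF4 and CHOP and the kinase AKT. Its level was 7.64, 6.99 and 7.34 FPKM in the vehicle libraries, 19.8, 17.1 and 16.5 in the rimonabant libraries and 79.8, 75.2 and 89.6 in the TXX-1-10 libraries. The treatments were widely separated, and rimonabant replicate 1, which lists this gene, lay close to its replicates. The mean was 7.32 ± 0.324 FPKM (SD, n = 3) with vehicle, 17.8 ± 1.76 (SD, n = 3) with rimonabant and 81.5 ± 7.34 (SD, n = 3) with TXX-1-10. Against vehicle, TRIB3 had a log2 fold change of 3.48 for TXX-1-10 (SE 0.07, interval 3.31 to 3.64) and 1.2 for rimonabant (SE 0.08, interval 1.02 to 1.38). The rimonabant value was 1.28 in a fit of all 9 libraries. TRIB3 lies at chr20:362835-397559 on the plus strand, and no annotated gene overlaps it. TRIB3 did not lead the group alone, since the fold change of DDIT3 was about the same; it was the member with the highest fold change for TXX-1-10 among the 5 listed in all 9 libraries.

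PPP1R15A, also known as GADD34, encodes the stress-induced subunit that directs protein phosphatase 1 to eIF2. It was the most abundant member in both treated groups, at 94.4, 91.7 and 95.9 FPKM in the vehicle libraries, 218, 200 and 208 in the rimonabant libraries and 282, 285 and 305 in the TXX-1-10 libraries. Each treatment formed a separate step. Fold changes against vehicle on the log2 scale were 1.63 for TXX-1-10 (SE 0.05, interval 1.51 to 1.75) and 1.12 for rimonabant (SE 0.06, interval 0.99 to 1.24). With 4891 to 17360 reads per library it was also the member with the highest counts. The gene lies at chr19:48872392-48876057 on the plus strand.

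SESN2 encodes sestrin 2, a leucine sensor that restrains mTORC1 and supports antioxidant defence. It was at 2.75, 2.96 and 2.89 FPKM in the vehicle libraries, at 10.8 and 11 in rimonabant replicates 2 and 3 and at 23.0, 23.3 and 22.7 in the TXX-1-10 libraries. The libraries of each treatment lay close together and the treatments far apart. SESN2 had a log2 fold change against vehicle of 3.01 for TXX-1-10 (SE 0.06, interval 2.87 to 3.14) and 1.93 for rimonabant (SE 0.07, interval 1.77 to 2.08). The value for TXX-1-10 was 3.02 without replicate 3. SESN2 lies at chr1:28259527-28282491 on the plus strand, with 10 exons in its annotated transcript.

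DDIT4, also known as REDD1, restrains mTORC1 through the TSC complex and is induced by hypoxia, glucocorticoids and ATF4. It was at 53.6, 57.1 and 60.4 FPKM in the vehicle libraries, 37.3, 32.0 and 34.6 in the rimonabant libraries and 61.3, 63.4 and 68.6 in the TXX-1-10 libraries. All rimonabant libraries were below all vehicle libraries, and the TXX-1-10 libraries were just above them. The log2 fold change was -0.78 for rimonabant (SE 0.07, interval -0.94 to -0.62) and 0.18 for TXX-1-10 (SE 0.06, interval 0.04 to 0.31), and neither was called. It was the only member with a lower level than vehicle under either compound. DDIT4 (chr10:72273920-72276036, plus strand) has an annotated antisense partner, DDIT4-AS1, that no list holds.

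CHAC1 encodes an enzyme that cleaves glutathione and is a known target of ATF4. It was at 1.48, 1.92 and 1.55 FPKM in the vehicle libraries, at 7.57 and 8.34 in rimonabant replicates 2 and 3 and at 13.1, 12 and 12.8 in the TXX-1-10 libraries. The vehicle values rest on 52 to 68 reads each, the fewest of any member, and the treatments did not overlap. On the log2 scale the fold change against vehicle was 2.93 for TXX-1-10 (SE 0.11, interval 2.69 to 3.18) and 2.27 for rimonabant (SE 0.12, interval 2 to 2.54), the highest value of a member for rimonabant. CHAC1 lies at chr15:40952962-40956519 on the plus strand.

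VLDLR encodes the very low density lipoprotein receptor, which also receives the signal of reelin. It was at 2.26, 2.59 and 2.19 FPKM in the vehicle libraries, at 4.45 and 4.47 in rimonabant replicates 2 and 3 and at 4.91, 5.05 and 5.04 in the TXX-1-10 libraries. Both treated groups were about level with each other and above vehicle. The log2 fold change was 1.09 for TXX-1-10 (SE 0.07, interval 0.94 to 1.25) and 0.93 for rimonabant (SE 0.08, interval 0.75 to 1.1). VLDLR (chr9:2621834-2660053, plus strand) is the longest member by exon length, and its antisense partner VLDLR-AS1 had 12 to 76 reads in the 5 libraries that list it.

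The comparison of TXX-1-10 with vehicle called 8 of the 10 members higher, and ATF4 and DDIT4 did not reach the fold threshold. Of all 9369 genes tested, 5.28% were called higher and 7.39% lower. The median log2 fold change was 1.77 over the members and -0.04 over all genes. In the comparison of rimonabant with vehicle, 5 members were called higher (CHAC1, SESN2, ATF3, TRIB3 and PPP1R15A), where 0.736% of all genes were called higher and 0.758% lower. The median was 1.04 over the members and 0.00 over all genes. These comparisons share their vehicle libraries, and since the members were chosen with these results known, nothing is read from how their counts stand to the background. Without TXX-1-10 replicate 3, 8 members were still called against vehicle, with DDIT3 at 3.38, TRIB3 at 3.4, PPP1R15A at 1.59 and DDIT4 at 0.13. Limma on log2(FPKM + 1) ended the calls of VLDLR with TXX-1-10 (0.85) and of ATF3 with rimonabant (0.91), leaving 7 and 4 members called. DDIT3 with rimonabant passed the fold threshold without rimonabant replicate 2, at 1.01, where the remaining rimonabant library is assumed to vary like the other groups, and VLDLR just reached it without vehicle replicate 2.

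Set directly against rimonabant, TXX-1-10 gave higher values for all 10 members, of which 3 were called (DDIT3, TRIB3 and SESN2), where 2.1% of all genes were called higher and 4.31% lower. The median log2 fold change was 0.82 over the members and -0.04 over all genes. DDIT3 differed by 2.52 (SE 0.11, interval 2.29 to 2.75) and TRIB3 by 2.28 (SE 0.08, interval 2.11 to 2.45). SESN2 followed at 1.08 (SE 0.06, interval 0.94 to 1.21). CEBPB (0.99, interval 0.75 to 1.23) and DDIT4 (0.95, interval 0.79 to 1.11) came just under the fold threshold. Without rimonabant replicate 3, 5 members were called in place of 3, with CEBPB at 1.09 and DDIT4 at 1.01, and both were also called with TMM scaling. Leaving out TXX-1-10 replicate 1 or 2 took CEBPB to 1.04 or 1.06, and leaving out TXX-1-10 replicate 3 or rimonabant replicate 2 took it to 0.87 or 0.9. DDIT3 was at 2.41 without TXX-1-10 replicate 3. DDIT4 was lower than vehicle with rimonabant and near vehicle with TXX-1-10, whereas CEBPB was near vehicle with rimonabant and higher with TXX-1-10. ATF3 differed by 0.69 (interval 0.45 to 0.93), CHAC1 by 0.67 (interval 0.45 to 0.88) and PPP1R15A by 0.51 (interval 0.38 to 0.64). VLDLR (0.17, interval 0.00 to 0.33) and ATF4 (0.11, interval -0.06 to 0.28) differed least. Without TXX-1-10 replicate 3 the value for ATF4 was 0.02, and with all 9 libraries it was 0.03. ATF4 was the only member whose TXX-1-10 and rimonabant libraries overlapped, where 71.4% of all genes tested did not overlap, and its interval leaves room for a difference of up to 0.28 on the log2 scale. The order of the members thus differed between the compounds, with CHAC1 and SESN2 ahead of TRIB3 and DDIT3 for rimonabant and behind them for TXX-1-10.

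**Figure D2:**
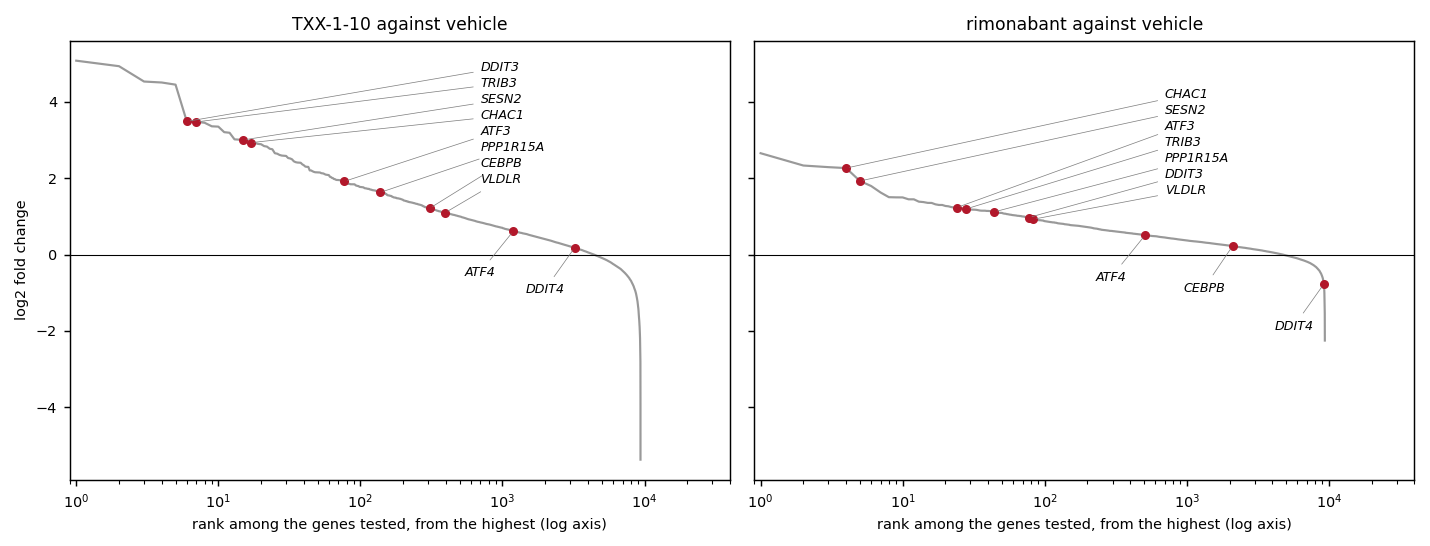
All 9369 genes tested, ranked by log2 fold change against vehicle from the highest on a log axis, with the 10 genes marked in red. DDIT3 and TRIB3 hold ranks 6 and 7 for TXX-1-10, CHAC1 and SESN2 hold ranks 4 and 5 for rimonabant, and DDIT4 lies near the low end for rimonabant.

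Among all genes ranked by fold change for TXX-1-10 from the highest, DDIT3 was at rank 6, TRIB3 at 7, SESN2 at 15 and CHAC1 at 17. ATF3 was at rank 77, PPP1R15A at 138, CEBPB at 307 and VLDLR at 393. ATF4 was at rank 1195 and DDIT4 at 3218, so ATF4 had a smaller difference in messenger RNA than every other member but DDIT4. For rimonabant, CHAC1 and SESN2 were at ranks 4 and 5, ATF3 at 24, TRIB3 at 28 and PPP1R15A at 44. DDIT3 was at rank 77, VLDLR at 83, ATF4 at 509 and CEBPB at 2098, while DDIT4 was 167th from the lowest.

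The levels of the members, compared per length in FPKM, fell into an abundant set and a scarce set in vehicle-treated cells. ATF4 (112 ± 2.82, SD, n = 3), PPP1R15A (94.0 ± 2.15), CEBPB (70.7 ± 5.31) and DDIT4 (57.0 ± 3.40) led, followed by DDIT3 (11.1 ± 0.291) and TRIB3 (7.32 ± 0.324). SESN2 (2.87 ± 0.107), VLDLR (2.34 ± 0.214), ATF3 (1.86 ± 0.206) and CHAC1 (1.65 ± 0.234) came last, and of all neighbours in that order only ATF3 and CHAC1 overlapped. In TXX-1-10-treated cells the order was PPP1R15A (291 ± 12.3), ATF4 (172 ± 18.8), CEBPB (164 ± 23.7), DDIT3 (125 ± 17.0), TRIB3 (81.5 ± 7.34), DDIT4 (64.5 ± 3.77), SESN2 (23.0 ± 0.306), CHAC1 (12.6 ± 0.583), ATF3 (7.04 ± 0.522) and VLDLR (5 ± 0.0799). There ATF4 and CEBPB overlapped, and DDIT3 and TRIB3 had passed DDIT4. In rimonabant-treated cells PPP1R15A (209 ± 9, n = 3) was again first and DDIT4 (34.6 ± 2.65, n = 3) kept its place above DDIT3 (21.7 ± 0.816, n = 2), while VLDLR and ATF3, the last in the order, overlapped. TRIB3 had a level above 38.6% of the genes tested in vehicle-treated cells, 69.2% with rimonabant and 95.8% with TXX-1-10. For DDIT3 these shares were 54.8%, 76.9% and 97.5%, and for CHAC1 they were 2.2%, 41% and 60.6%.

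The pattern of TRIB3 over the 8 libraries was compared with that of every other gene by Pearson correlation of log2(FPKM + 1), as a description, since the libraries fall into 3 treatments and share their depth. Among the members r was 0.997 for DDIT3, 0.972 for CEBPB, 0.958 for SESN2, 0.952 for ATF3, 0.939 for PPP1R15A, 0.915 for CHAC1, 0.872 for VLDLR and 0.862 for ATF4. DDIT4 was at 0.358. Outside the members the closest were UPP1, a uridine phosphorylase (0.9996), NUPR1, a small stress-induced chromatin protein (0.9995), DEDD2 (0.9995), PGPEP1 (0.9993) and SQSTM1, the autophagy receptor p62 (0.9990). UPP1 had a mean of 12.7, 25.7 and 103 FPKM with vehicle, rimonabant and TXX-1-10, and SQSTM1 47.9, 81.6 and 218.

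The rest of the pathway was read from 8 lists of genes written with earlier results of these data known, and is given as counts without a test of any list. In all, 150 genes of these lists were tested, each counted once although some are in several lists. Of the 150, TXX-1-10 had 36 called higher and 2 called lower than vehicle. Of all 9369 genes, TXX-1-10 had 5.28% called higher and 7.39% lower than vehicle, and rimonabant 0.736% and 0.758%. Between the compounds these shares were 2.1% and 4.31%. Nothing is read from how the list counts stand to these shares. Upstream of ATF4, none of the 10 kinases of eIF2 and their inputs and none of the 13 genes of eIF2, its exchange factor eIF2B and its phosphatase was called in any comparison with edgeR's quasi-likelihood test, DESeq2 or limma on log2(FPKM + 1). With edgeR, 8 of the 10 and 8 of the 13 had an unadjusted p under 0.05 for TXX-1-10 against vehicle, at any fold change. These counts were 4 and 4 for rimonabant against vehicle, and 2 and 7 for TXX-1-10 against rimonabant. At an adjusted p under 0.05 they were 8 and 8, 4 and 3, and 2 and 7. Of all 9369 genes, 7051, 4360 and 5673 had such an adjusted p, in the same order of comparisons. The median log2 fold change of these lists for TXX-1-10 was -0.20 and -0.05. EIF2AK3, which encodes the kinase PERK of the endoplasmic reticulum, had the highest value of the kinases (log2 fold change 0.83 for TXX-1-10, SE 0.11, and 0.61 for rimonabant, SE 0.12). The other kinase genes, EIF2AK4 (-0.40), EIF2AK1 (-0.30) and EIF2AK2 (-0.11), lay below 0 for TXX-1-10.

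Downstream, 44 targets of ATF4 and CHOP other than the members were tested. Of these, 19 were called higher with TXX-1-10, 7 with rimonabant and 10 with TXX-1-10 relative to rimonabant. The others were not called in those comparisons, and at any size 41, 39 and 39 of the 44 were higher. The median log2 fold change of the 44 was 0.82, 0.42 and 0.50. NUPR1 rose by 4.94 on the log2 scale with TXX-1-10 (SE 0.15) and by 2.29 with rimonabant (SE 0.19). Its mean was 0.431 FPKM with vehicle, 2.11 with rimonabant and 13.3 with TXX-1-10. The vehicle level was thus below the filter of 1 FPKM, which NUPR1 passed only through the treated groups. GDF15, a secreted stress cytokine, rose by 4.45 with TXX-1-10 (SE 0.12), from 2.13 ± 0.109 to 46.8 ± 5.75 FPKM (SD, n = 3 each). BBC3, which encodes the cell death protein PUMA, rose by 3.46 and KLHL24 by 2.76, and both were also called for rimonabant (1.35 and 1.18). Without TXX-1-10 replicate 3, 18 of these targets were called against vehicle. The amino acid synthesis gene ASNS and the peptide hormone gene ADM2 are listed in 7 libraries and were not tested. ASNS had 42 and 47 reads in vehicle replicates 1 and 3, 229 and 182 in rimonabant replicates 2 and 3, and 506, 462 and 430 with TXX-1-10. ADM2 had 21 and 42, 239 and 215, and 596, 561 and 529 reads in the same libraries.

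**Figure D3:**
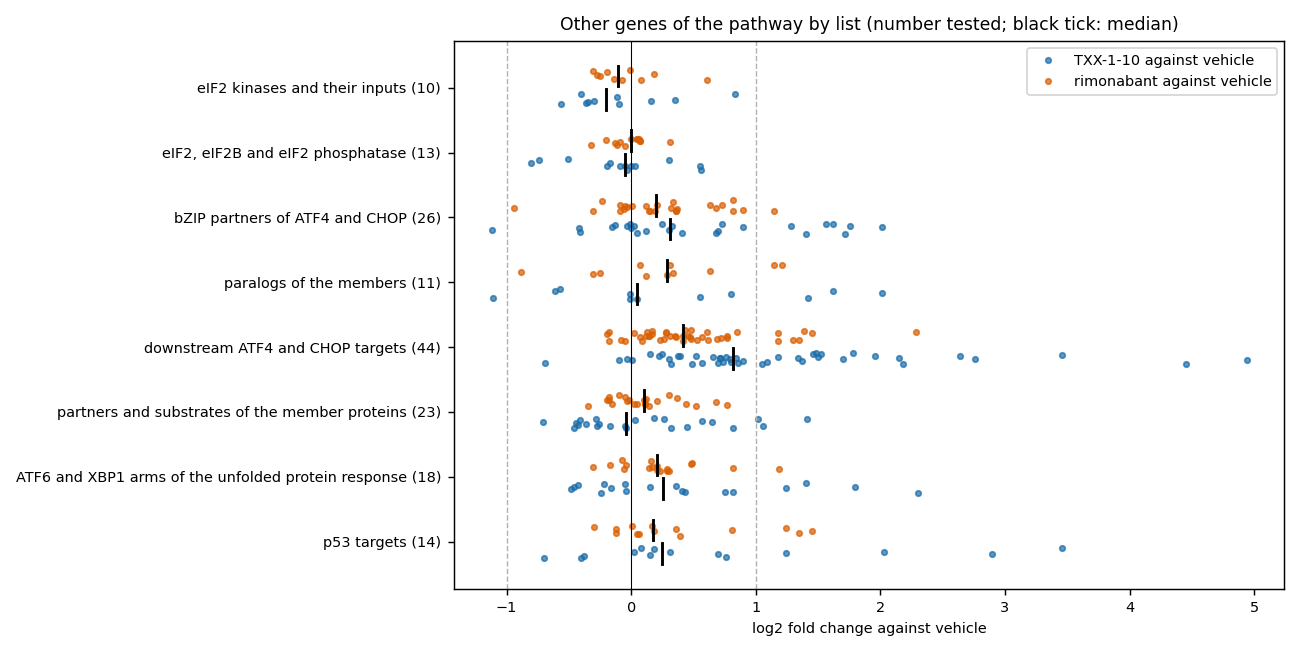
Log2 fold change against vehicle of each tested gene in 8 lists around the 10 members, blue for TXX-1-10 and orange for rimonabant, with a black tick at each list's median and the number of genes tested in brackets. The downstream targets lie mostly to the right of 0 (medians 0.82 and 0.42), while the kinases and the eIF2 genes stay within -1 and 1.

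Relatives of the members did not all follow them. Of 11 tested paralogs, TXX-1-10 had 3 called higher and 1 lower than vehicle. Beside TRIB3, TRIB1 rose by 1.42 on the log2 scale (SE 0.08) and TRIB2 fell by 1.11 (SE 0.09). Beside SESN2, SESN3 had a log2 fold change of 0.80 with TXX-1-10, which was not called, and rose by 1.21 with rimonabant (SE 0.14), from 0.791 ± 0.0971 (n = 3) to 1.83 ± 0.0879 FPKM (n = 2). SESN1 had 93 and 77 reads in vehicle replicates 1 and 3, 146 and 130 with rimonabant and 125, 139 and 142 with TXX-1-10, and was not tested. Beside ATF3, JDP2 rose with both compounds (2.01 and 1.15), and beside CEBPB, CEBPG rose with TXX-1-10 (1.62) while CEBPD was at 0.05. The following relatives of other members were not called for either compound. PPP1R15B, which codes for the constitutive counterpart of PPP1R15A, was at 0.55 for TXX-1-10 and 0.31 for rimonabant, ATF5 at -0.01 and 0.12, CHAC2 at -0.61 and -0.25, and the reelin receptor gene LRP8, a relative of VLDLR, at -0.57 and 0.07.

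Of 26 tested leucine zipper partners of ATF4 and CHOP, a list that shares JDP2, CEBPG, ATF5 and CEBPD among its tested genes with the paralogs, 7 were called higher and 1 lower with TXX-1-10, and JDP2 alone was called with rimonabant. JUNB rose by 1.76 and MAFG by 1.72 with TXX-1-10, and FOSL2 fell by 1.12. Of 23 partners and substrates of the member proteins, GCLC (1.41), DAB2 (1.06) and TXNIP (1.02) were called higher with TXX-1-10. GCLC encodes a subunit of the enzyme for glutathione synthesis. None of the 23 was called for rimonabant or between the compounds with edgeR, DESeq2 or limma on log2(FPKM + 1). In those comparisons 10 and 15 had an unadjusted p under 0.05 with edgeR. At an adjusted p under 0.05 and any fold change these were 9 and 14, where 4360 and 5673 of all 9369 genes had one. For VLDLR, the ligand gene APOE had 53 and 38 reads in vehicle replicates 1 and 3, 56 and 54 in rimonabant replicates 2 and 3 and 166, 173 and 193 with TXX-1-10, and was not tested. Without TXX-1-10 replicate 3, 2 of the 23 were called against vehicle.

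In the neighbouring arms of the unfolded protein response, led by ATF6 and XBP1, 4 of 18 genes were called higher with TXX-1-10. At any size, 10 of the 18 were higher. The 4 called were the co-chaperone gene DNAJB9 (2.30), the sensor gene ERN1 (1.80), XBP1 (1.40) and the chaperone gene HSPA5 (1.24). XBP1 is also counted among the leucine zipper partners. HSPA5 went from 137 ± 1.78 to 326 ± 21.3 FPKM (SD, n = 3 each). Of the 4, DNAJB9 was also called higher with rimonabant (1.19), and HSPA5 was at 0.16. DNAJB9, ERN1 and HSPA5 were called between the compounds. Since SESN2 and BBC3 are also known targets of p53, 14 p53 targets were counted. Of them, 4 were called higher with TXX-1-10 and 3 with rimonabant, and 2 were called between the compounds. They were BBC3, TP53INP1 (2.90 and 1.24), CDKN1A (2.03 and 1.45) and, for TXX-1-10 alone past the fold threshold, GADD45A (1.24, against 0.81 for rimonabant). Over the 14 the median log2 fold change was 0.25 for TXX-1-10 and 0.17 for rimonabant, and 10 were not called with TXX-1-10. BBC3 is also counted among the downstream targets. MDA-MB-231 cells are known to carry mutant p53, and whether p53 had a part in these values was not tested.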

How the data were processed

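Polyadenylated RNA of 9 libraries was sequenced by the authors, 3 each from cells given DMSO (vehicle), rimonabant or TXX-1-10. The submitters' processing notes name HISAT2 2.0.5 and featureCounts 1.5.0-p3, with no role given. The strand setting is not given in the sources used here. Each list deposited by the authors gives whole-number read counts per gene, not normalized. It also gives the FPKM that the authors derived from each count with gene length and a library total, and that total, recovered from both columns, was used as library size. Coordinates are GRCh38, and all 27615 genes of the longest list match GENCODE 29. Every list ends in an incomplete line, which was dropped, and a gene past a list's end was treated as missing.

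Groups follow the treatment labels. The fit was made with edgeR 4.0.16 (glmQLFit, glmQLFTest; R 4.3.3) on 8 libraries and 9369 genes, with the 3 treatments in a single model (common biological coefficient of variation 0.0604). Standard errors come from the F statistic and are approximate. The thresholds, an absolute log2 fold change of 1 and an adjusted p of 0.05, follow the legend of the study's RNA-seq figure; its methods instead give a fold change above 2 and a p from Cufflinks. Alternatives used TMM, DESeq2 1.42.0, limma 3.58.1 on log2(FPKM + 1) or log2(FPKM + 0.1), other filters, a gene length offset (lowess, span 0.3), a replicate block, all 9 lists, and each library left out. Scripts were tested on simulated data. Figures were drawn with Python 3.11.15 and matplotlib 3.10.9.

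The members and lists were chosen with earlier results of these data known, so no p-value is given for a member or a named gene of a list. Named genes are the members, up to 4 genes of each list with the largest TXX-1-10 change among called genes whose groups do not overlap, tested paralogs (1 of them not reported here), and the 5 genes most like TRIB3. EIF2AK1, EIF2AK2, EIF2AK3, EIF2AK4, FOSL2, ASNS, ADM2, SESN1 and APOE were named after their values were seen.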

Additional observations from a re-analysis of the deposited data

How the results depend on the processing

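No member changed direction in any comparison under the alternatives run. Counting each member under each alternative, 182 of 183 values for TXX-1-10 against vehicle, 178 of 183 for rimonabant against vehicle and 172 of 183 for TXX-1-10 against rimonabant kept their side of the thresholds. Limma on log2(FPKM + 1) took VLDLR with TXX-1-10 to 0.85 and ATF3 with rimonabant to 0.91, below the fold threshold, and called 76 genes between rimonabant and vehicle, where edgeR called 140. DDIT3 with rimonabant passed the threshold with the gene length offset (1.06), with that offset and the replicate block (1.07), and without rimonabant replicate 2 (1.01, with 1 rimonabant library left). VLDLR with rimonabant passed it without vehicle replicate 2.

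Over the genes of all 9 lists, which hold 5 members, 500, 48 and 251 genes were called in the 3 comparisons (TXX-1-10 against vehicle, rimonabant against vehicle, TXX-1-10 against rimonabant), against 1187, 140 and 601 over 9369 genes, and 3, 2 and 1 members, against 8, 5 and 3; fewer genes were tested there. At any fold change 7051, 4360 and 5673 genes had an adjusted p under 0.05, among them 9 members for rimonabant and 8 between the compounds. Members called between the compounds were 5 with TMM, 5 with the gene length offset and 5 with that offset and the replicate block, as DDIT4 and CEBPB lay just under the threshold. Leaving out each library in turn gave 3 to 5 members there, 5 without rimonabant replicate 3, where the remaining rimonabant library is assumed to vary like the other groups. The pathway lists had 23 genes called over all 9 lists, against 38. With the stricter core 1 member held the motif, against 2. Correlations of the deviations of same-numbered libraries were -0.08, -0.03 and -0.09 between TXX-1-10 and vehicle, 0.01 and 0.14 between rimonabant and vehicle, and 0.40 and 0.43 for TXX-1-10 with rimonabant, whose 2 libraries deviate as mirror images of each other; as not every pair was above 0.1, the numbers were not taken to pair the libraries. With the replicate number as a block, 1189, 138 and 606 genes and 8, 5 and 3 members were called. Genes beyond the ends of the lists, and differences in members at the depth of CHAC1 and ATF3 in vehicle-treated cells smaller than their intervals, were not resolved. The median over all genes of a fit lay between -0.095 and 0.014 on the log2 scale under every setting run. The lowest value was that over the genes of all 9 lists.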
